A study of Mus musculus with 51 samples.

Results

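The ubiquitin-specific protease (USP) genes were taken from the deposited mouse gene table by symbol: Usp followed by a number and, in some, by letters, without Usp18, when a gene reached 10 counts in at least 2 of the 51 libraries. The rule kept 49 of 40077 genes, out of 55 that carry such a name. The 6 genes below it were Usp9y, which was at 0 in all 51 libraries, Usp17ld, Usp17le and Usp26, which never reached 10 counts, and Usp51 and Usp17lb, which reached 10 counts in 1 library each, with highest counts of 14 and 11. The members nearest to the limit were Usp13, at 10 counts in 17 libraries, Usp17lc in 19 and Usp50 in 20, followed by Usp44 in 38 and Usp43 in 44, whereas the other 44 members passed it in every library. Usp6nl was kept because its symbol fits the pattern, although it encodes a GTPase-activating protein for Rab proteins and not a protease.

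Ubiquitin is attached to proteins by a relay of enzymes that starts with the E1 enzyme UBA1, which activates ubiquitin and hands it to an E2, and ends with an E3 ligase that chooses the substrate. Deubiquitinases cut ubiquitin off again, and the USPs, cysteine proteases with a shared catalytic fold, are the largest of their families. By removing ubiquitin chains they rescue substrates from the proteasome, end ubiquitin signals on histones, at DNA lesions and on endosomes, and return free ubiquitin to the pool that UBA1 draws on.

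The study compared gene expression after UBA1 was lost, overexpressed or inhibited, in 35 tumor and 16 cultured-cell libraries. Myc-CaP is a mouse prostate cancer cell line, grown as tumors under the skin of both flanks of male FVB mice, and B16-BL6 is a mouse melanoma line, grown in female C57BL/6 mice, all 6 to 8 weeks old at the start. Tumors with a guide RNA against Uba1 (sgUba1) were compared with non-targeting controls (sgNC), 7 with 3 in Myc-CaP and 4 with 3 in B16-BL6. Both arms had been grown out from single cells, so that each arm carries the traits of its clone or clones, and tumors of 1 mouse may be among the replicates. Myc-CaP tumors carrying a lentiviral, CMV-promoter-driven Uba1 overexpression (OE) construct under blasticidin selection (n = 4) were compared with empty vector (EV, n = 3), and Myc-CaP tumors of mice given intravenous TAK-243, a small-molecule UBA1 inhibitor, at 25 mg/kg (n = 5) with vehicle (n = 6). In culture, Myc-CaP cells received 50 nM TAK-243 or none for 18 hours, and sgUba1 cells were set against control (NC) cells under PBS, each without and with IFN-γ at 1 ng/mL for 18 hours (2 libraries in each of the 8 groups).

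Library totals ran from 8652097 to 38032395 estimated counts, and no pair of libraries held identical values. Uba1 itself checked the labels, in CPM, counts scaled to library size by edgeR. It was lower in sgUba1 than NC cells (295 and 283 against 533 and 526 CPM), lower in B16-BL6 sgUba1 tumors (208 to 247 against 410 to 455 CPM) and higher in OE tumors (631 to 747 against 278 to 310 CPM). In Myc-CaP, however, the tumors labelled sgUba1 fell apart: replicates 1 to 3 had 197, 202 and 211 CPM, whereas replicates 4 to 7 had 373, 361, 368 and 383 CPM, above each of the sgNC tumors at 320, 325 and 337 CPM. The libraries labelled sgUba1 replicates 4 to 7 therefore went against their label. The study describes independent guides against Uba1, but the labels do not say which guide or subline a tumor carries, so a different guide, a different subline and a wrong label cannot be told apart here. The edgeR results that use them are given with and without them. The summed level of 8 melanocyte genes was 10450 to 12460 TPM, a unit that also corrects for transcript length, in B16-BL6 tumors and at most 16.3 TPM in Myc-CaP tumors, and that of 8 prostate epithelial genes was 311 to 882 TPM in Myc-CaP and at most 2.54 TPM in B16-BL6 tumors.

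The USP genes spanned a wide range of expression on the TPM scale. Averaged over the 51 libraries, Usp9x, a large X-linked enzyme that trims ubiquitin from many signaling proteins, was highest at 126 TPM. It was followed by Usp7 at 85.8 TPM, the protease best known for stabilizing MDM2 and p53, by Usp48 at 83.1, Usp10 at 73.0 and Usp1, which deubiquitinates FANCD2 and PCNA in DNA repair, at 64.3 TPM. The lowest members were Usp13 at 0.203 TPM, Usp17lc at 0.248, Usp29 at 0.610, Usp50 at 1.29 and Usp27x at 1.5 TPM. Together the members held 1198 to 1711 TPM in a cell library and 1249 to 1690 TPM in a tumor.

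The order at the top differed between culture and tumor. In untreated cells Usp1 led, with mean levels of 116 TPM in the control group and 138 TPM in NC cells, whereas Usp9x led in the TAK-243-treated cells and in each of the 8 tumor groups. Usp48 came next in the Myc-CaP tumors and Usp5 in the B16-BL6 tumors. Single libraries had 51.6 to 152 TPM of Usp1 in culture and 15.8 to 77.1 TPM in tumors. Usp44, a histone H2B deubiquitinase with a part in the spindle checkpoint, was at 4.90 to 8.74 TPM in all cell libraries but at no more than 2.89 TPM in any tumor. Usp43 set the tumor lines apart, with at most 0.0549 TPM in B16-BL6 tumors and 2.63 TPM or more in every Myc-CaP tumor. Usp5, which takes apart unanchored ubiquitin chains, was at 83.9 to 110 TPM in B16-BL6 and 34.4 to 59.5 TPM in Myc-CaP tumors. The Usp17l genes are near-identical copies, and Usp2, Usp8, Usp10, Usp30, Usp37, Usp46, Usp49, Usp50 and Usp54 overlap another annotated gene over 15466 to 53172 bases, with shorter overlaps in other members, so the division of reads between them and their copies or neighbours is uncertain. The lines, hosts and tissues differ in many ways at once, and the levels are given without a test.

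**Figure D1:**
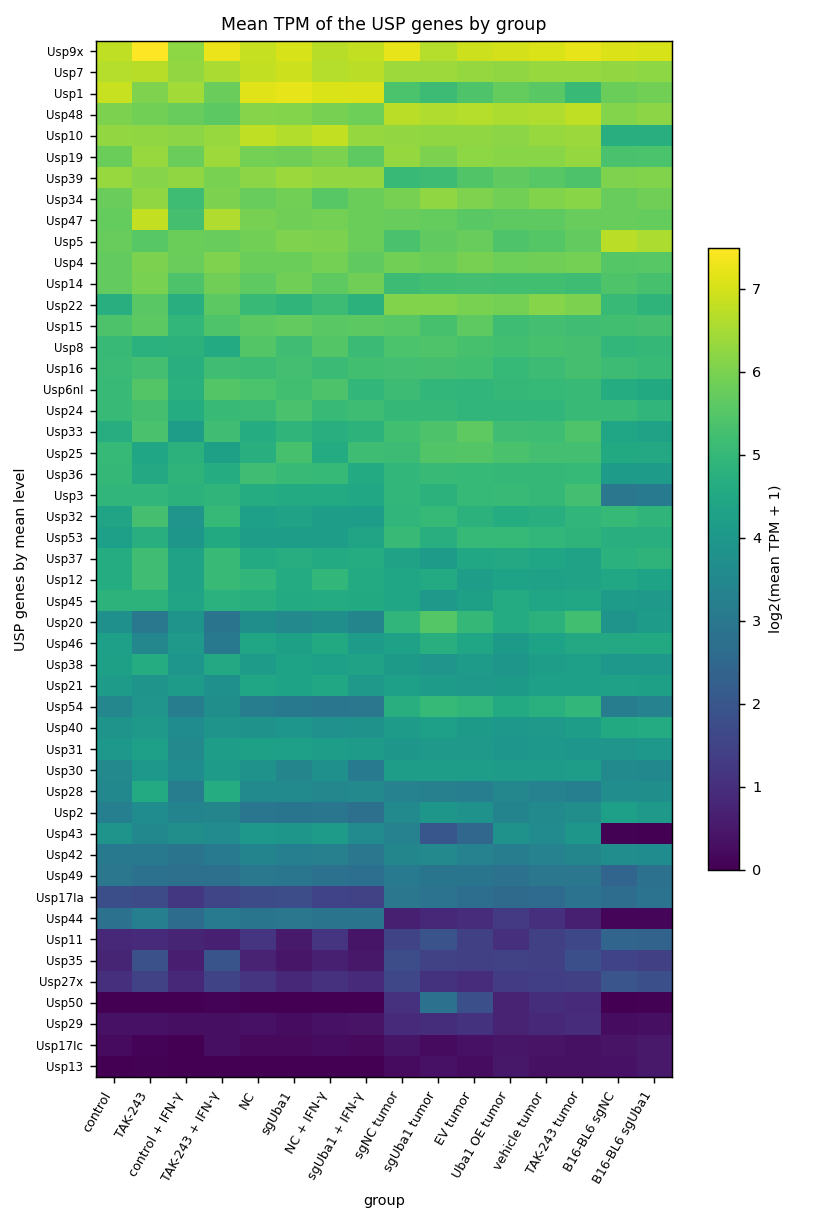
Level of each of the 49 USP members (rows) in the 16 groups (columns) as log2 of the mean TPM plus 1. Usp9x, Usp7, Usp48, Usp10 and Usp1 form the bright end, with means over all libraries of 64.3 to 126 TPM, and Usp43 is near 0 in both B16-BL6 groups.

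TAK-243 moved most USP genes in cultured Myc-CaP cells. The question was how inhibiting the E1 changed the transcripts of the enzymes that act at the opposite end of the pathway. Of 46 members that passed the expression filter, 26 rose and 10 fell (edgeR quasi-likelihood test, Benjamini-Hochberg adjusted p under 0.05 over all 14551 genes). Among all genes tested 66.3% changed, 32.3% upward and 34% downward, so that the members' total was set against a large background. The median log2 fold change was 0.23 for the members and 0.03 for all genes.

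The largest increase was that of Usp35, a little-studied USP assigned to no list here. It was at 1.92 and 2.0 CPM in control cells and at 8.59 and 6.5 CPM with TAK-243, a 3.88-fold difference (log2 1.96 ± 0.216, standard error, SE, adjusted p = 3.11e-09). The largest decrease was that of Usp20, which acts on membrane receptors and at the endoplasmic reticulum, at 18 and 15.2 CPM in control and 5.34 and 5.06 CPM in treated cells (3.18-fold lower, log2 -1.67 ± 0.137, adjusted p = 5.71e-12). Both pairs of libraries were far apart and did not overlap, which 2 against 2 libraries can readily show by chance. Both calls were kept in all 17 alternative settings, but the sizes varied. The log2 values ran from 1.09 to 2.08 for Usp35 and from -1.795 to -0.77 for Usp20.

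Counts in the role lists that follow are to be read against the 66.3% of all genes that changed. Of 7 members that act on p53, MDM2 or Myc 4 rose and 1 fell, a share near that of all genes, with a median of 0.07 beside 0.03. Usp28, a Myc-stabilizing protease, was at 26.6 and 26.8 CPM in control and 58.4 and 61.7 CPM in treated cells (log2 1.17 ± 0.0746, adjusted p = 1.78e-14). Usp37, Usp15 and Usp7 rose by 0.57, 0.18 and 0.07 on the log2 scale, the last with an adjusted p of 0.0491. Usp36, a nucleolar member of the list, fell by 0.39, and Usp2 and Usp10 did not pass the test.

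In the TGF-β, Wnt and Hippo list all 5 members rose, with a median log2 fold change of 0.53 against 0.03 for all genes. Usp47 was at 179 and 174 CPM in control and 375 and 385 CPM in treated cells (log2 1.11 ± 0.0351, adjusted p = 8.65e-22). Usp9x was at 429 and 437 against 693 and 691 CPM (log2 0.68 ± 0.0291, adjusted p = 1.36e-18). Usp34, a regulator of Axin in Wnt signaling, rose by 0.53, and Usp4 and Usp15, a pair of close relatives, by 0.31 and 0.18. With IFN-γ present 4 of the 5 rose, Usp4 being the exception.

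Deubiquitinases of DNA repair and the partners of the activator UAF1 were split, with 3 of 8 higher and 3 lower and a median of 0.06. Usp1 went from 247 and 254 CPM to 134 and 134 CPM (log2 -0.90 ± 0.035, adjusted p = 1.17e-19). Usp46, which like Usp1 needs UAF1 and has the antisense gene Usp46os1 across it, went from 39.4 and 39.9 to 20.9 and 17.8 CPM (log2 -1.03 ± 0.0979, adjusted p = 1.53e-10). Usp12, the third enzyme activated by UAF1, went the opposite way, from 68.7 and 69.2 to 97.8 and 110 CPM (log2 0.59, adjusted p = 4.57e-11). Wdr48, which encodes UAF1, rose by 0.48. Usp48 fell by 0.50, but on the log2(TPM + 1) scale it was at -0.12 and not called.

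Among the enzymes of endosomes, endoplasmic reticulum, mitochondria and peroxisomes all 7 changed, 4 upward and 3 downward, with a median of 0.51. Usp32 was at 82.2 and 78.2 CPM in control and 152 and 150 CPM in treated cells (log2 0.92), and Usp33 at 64.2 and 63.9 against 110 and 104 CPM (log2 0.74). Usp19, anchored in the endoplasmic reticulum, and Usp30, which opposes Parkin on mitochondria, rose by 0.56 and 0.51. Usp20 fell as given above, Usp25 went from 98.5 and 99.7 to 63.6 and 69.1 CPM (log2 -0.58), and Usp8, which spares receptors from lysosomal sorting, from 90.2 and 89.8 to 77.2 and 68.8 CPM (log2 -0.30). Every one of these groups of 2 was separate from its control, which 2 against 2 libraries can readily show by chance. The share of all genes so separated was not counted.

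Of the histone deubiquitinases 7 of 8 could be tested, and 4 of them rose, with a median of 0.25. Usp22, the catalytic subunit of the SAGA coactivator, was at 72.5 and 73.4 CPM in control and 145 and 132 CPM in treated cells (log2 0.93 ± 0.0497, adjusted p = 2.4e-16). Usp27x, its X-linked relative, rose by 0.59, Usp44 by 0.52 and Usp16, an H2A deubiquitinase, by 0.25. In the ubiquitin-recycling list, Usp14, which sits on the proteasome, rose by 0.23 and Usp5 fell by 0.16, and Usp13 was too low to test. The NF-κB and innate immune list had 3 of 5 higher and 1 lower (Usp25), and the cell cycle and cytoskeleton list 3 of 4 higher and 1 lower (Usp39, at -0.19). A further list held members whose active site is lost or that were reported without activity. It had 2 of 3 tested higher and 1 lower. Several genes stand in more than 1 of these lists, so the counts cannot be added up.

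**Figure D2:**
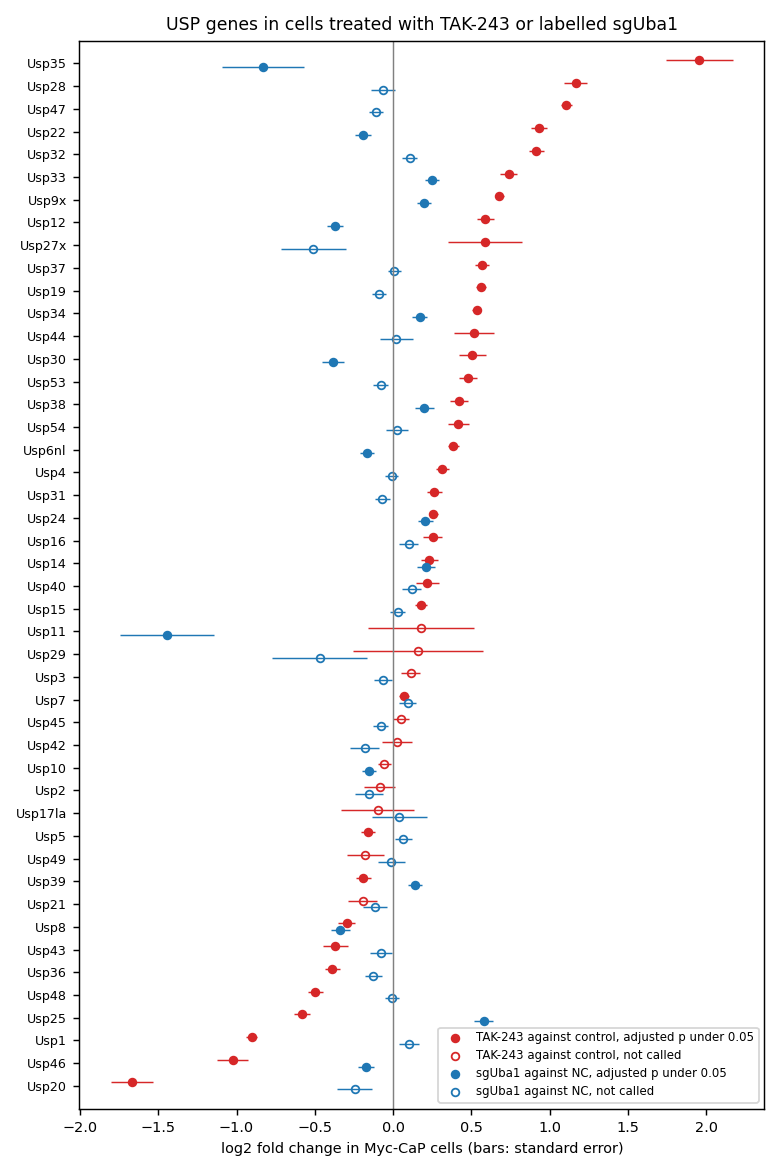
Log2 fold change with its standard error (horizontal bars) for the 46 members tested in both cell experiments, TAK-243 against control in red and sgUba1 against NC in blue, with filled symbols for adjusted p under 0.05. TAK-243 values run from -1.67 (Usp20) to 1.96 (Usp35), and Usp25, Usp12 and Usp22 lie on opposite sides of 0 in the different experiments.

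The same comparison in cells that also received IFN-γ used 4 other libraries. There 25 of 46 members rose and 12 fell, against 68.2% of all genes, 32% upward and 36.2% downward, with a median of 0.25 for members and 0.02 for all genes. Of the 26 members higher without IFN-γ, 24 were among the 25 higher with it, and all 10 of the lower ones were among the 12. Usp35 was at 1.90 and 1.78 CPM with IFN-γ alone and 8.93 and 8.01 CPM with both agents (log2 2.2). Usp20 was at 18.5 and 19.3 against 6.33 and 6.07 CPM (log2 -1.61). On log2(TPM + 1) the median of all genes was 0.12 with IFN-γ, a shift of all values, and 26 members were higher and 8 lower.

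**Figure D3:**
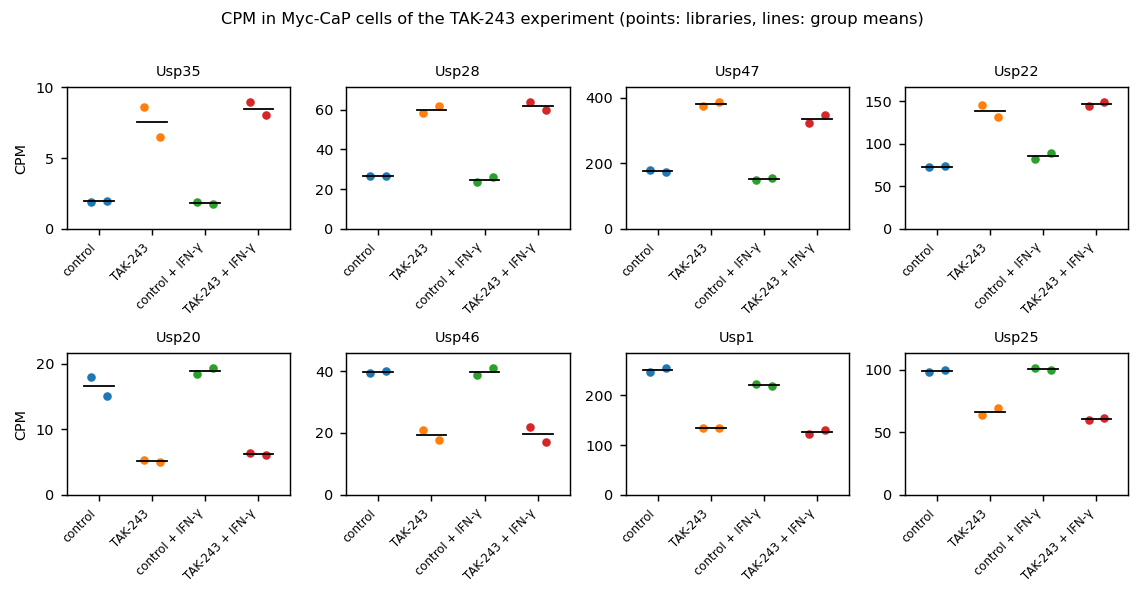
CPM of 8 members in each library of control and TAK-243-treated Myc-CaP cells without and with IFN-γ (points are single libraries, 2 per group). Usp35, Usp28, Usp47 and Usp22 are higher and Usp20, Usp46, Usp1 and Usp25 lower in all TAK-243 libraries than in all libraries without it.

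Promoter sequence was looked at for the members that passed the test with TAK-243. RefSeq windows of 300 bases, 250 before the annotated start and 50 from it on (mouse build GRCm38.p6), were found for 38 of the 49 members, 20 of which rose and 6 of which fell. The E-box CACGTG, the palindrome bound by Myc and by the TFEB family, was found for 5 of the 20 members that rose (25%: Usp4, Usp6nl, Usp16, Usp31 and Usp32), for 0 of the 6 that fell, and for 8.09% of all 27025 genes. A gene with more than 1 window was counted when any held the motif, as for Usp6nl, the 1 member with 2 windows, of which 1 held it. In Usp31, Usp4 and Usp32 it lay near the start, as the first 3 windows below show, and in Usp16 and Usp6nl further upstream, at positions 174 and 106. They are followed by the windows of the members with the largest increase and the largest decrease, which hold no E-box. Capitals mark a match on either strand, an E-box in the first 3 and CCAAT, read on the opposite strand, in the last, and positions count from 1 at the 5′ end of the window, with the start at 251. The window of Usp31 is chr7:121707393-121707692, minus strand, with the E-box at 229. That of Usp4 is chr9:108347581-108347880, plus strand, at 244, and that of Usp32 chr11:85139906-85140205, minus strand, at 248. The window of Usp35 is chr7:97332060-97332359, minus strand, without a match, and that of Usp20 chr2:30982029-30982328, plus strand, with CCAAT at 261.
Usp31: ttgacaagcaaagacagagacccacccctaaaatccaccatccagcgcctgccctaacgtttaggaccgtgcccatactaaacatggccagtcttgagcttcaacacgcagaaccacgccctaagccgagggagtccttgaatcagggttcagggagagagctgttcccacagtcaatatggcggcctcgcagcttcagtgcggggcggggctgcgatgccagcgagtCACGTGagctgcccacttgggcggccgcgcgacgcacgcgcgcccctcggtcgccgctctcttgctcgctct
Usp4: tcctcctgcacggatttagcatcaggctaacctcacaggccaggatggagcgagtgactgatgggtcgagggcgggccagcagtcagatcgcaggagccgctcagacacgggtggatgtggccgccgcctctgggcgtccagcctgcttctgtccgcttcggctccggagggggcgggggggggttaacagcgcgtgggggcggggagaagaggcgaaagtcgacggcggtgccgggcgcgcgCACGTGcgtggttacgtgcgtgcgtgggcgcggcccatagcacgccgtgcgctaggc
Usp32: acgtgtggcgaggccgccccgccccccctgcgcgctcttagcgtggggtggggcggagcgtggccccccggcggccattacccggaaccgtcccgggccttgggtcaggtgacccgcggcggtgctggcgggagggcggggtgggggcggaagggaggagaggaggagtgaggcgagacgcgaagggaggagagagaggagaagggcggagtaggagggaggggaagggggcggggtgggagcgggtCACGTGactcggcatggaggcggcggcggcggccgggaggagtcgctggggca
Usp35: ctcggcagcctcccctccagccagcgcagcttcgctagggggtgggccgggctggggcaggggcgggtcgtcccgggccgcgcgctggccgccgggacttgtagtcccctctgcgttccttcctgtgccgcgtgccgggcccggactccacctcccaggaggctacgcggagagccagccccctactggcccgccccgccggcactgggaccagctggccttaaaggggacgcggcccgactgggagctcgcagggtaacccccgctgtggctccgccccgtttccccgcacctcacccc
Usp20: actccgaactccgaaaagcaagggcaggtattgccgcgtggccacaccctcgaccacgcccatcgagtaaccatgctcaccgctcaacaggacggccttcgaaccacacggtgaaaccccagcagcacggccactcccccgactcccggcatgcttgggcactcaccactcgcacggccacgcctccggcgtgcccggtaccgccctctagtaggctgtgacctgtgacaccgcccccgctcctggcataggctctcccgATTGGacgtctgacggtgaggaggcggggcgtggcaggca
The 3 E-boxes shown lie just before or across the start. The other motifs were searched on both strands in the same way. The heat shock element GAANNTTC was found for none of the 38 members and for 9.04% of all genes, the NRF1 motif GCATGCGC for Usp37 and Usp48 and 3.05% of all, the ATF4 motif TGATGNAA for Usp6nl and 4.51% of all, and CCAAT for 10 of 38 (26.3%) and 41.1% of all. A match of letters is a description and says nothing of binding. The E-box is given because of its share, which was seen before it was chosen for display.

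The guide RNA experiment asked the same question with Uba1 reduced genetically. Of 47 members tested in sgUba1 against NC cells 8 rose and 9 fell, against 29.7% of all genes (16.2% upward, 13.6% downward), with a median of -0.06 for members and -0.00 for all genes. On log2(TPM + 1) 4 were higher and 3 lower. The count rested on the sgUba1 libraries: without replicate 1 of that group 2 members rose and 5 fell, and without replicate 2 the counts were 3 and 4. The p-values measure the spread between 2 libraries per group of clonal lines, which may be technical.

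Among members above 1 log2 CPM the largest change was that of Usp25. This enzyme, which also acts in innate immune signaling, was at 74.3 and 84.6 CPM in NC and 115 and 123 CPM in sgUba1 cells (log2 0.58 ± 0.0611, adjusted p = 5.46e-05). Usp33 went from 62.7 and 62.4 to 73.4 and 75.2 CPM (log2 0.25), and Usp9x from 432 and 418 to 485 and 491 CPM (log2 0.20). The other members that rose were Usp14, Usp24, Usp38, Usp34 and Usp39, by 0.14 to 0.21.

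The members that fell included Usp30, at 23.2 and 25.2 CPM in NC and 18.8 and 18.2 CPM in sgUba1 cells (log2 -0.38 ± 0.0724, adjusted p = 0.00213). Usp12 went from 84.2 and 84.4 to 63.2 and 67.3 CPM (log2 -0.37 ± 0.0498, adjusted p = 0.000255), and Usp8 from 112 and 125 to 94.2 and 93.9 CPM (log2 -0.34 ± 0.0581, adjusted p = 0.00126). Usp22, Usp46, Usp6nl and Usp10 fell by 0.15 to 0.19. In each of these the libraries of the groups did not overlap. Usp8, Usp12, Usp25, Usp30 and Usp33 kept their calls in all 8 fits with 1 library left out, whereas the calls of Usp9x, Usp10, Usp14, Usp22, Usp24, Usp34, Usp38, Usp39, Usp46 and Usp6nl were each lost in at least 1.

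Below that level were Usp11 and Usp35, which are named because their values were seen. Usp11, a relative of Usp4 and Usp15 with a part in homologous recombination, showed the largest fold change of any member, at 2.65 and 2.88 CPM in NC and 1.13 and 0.902 CPM in sgUba1 cells (log2 -1.44 ± 0.30, adjusted p = 0.00385). With IFN-γ it was at 2.99 and 2.81 against 1.21 and 0.502 CPM (log2 -1.75 ± 0.302, adjusted p = 7.64e-04). Usp11 is also a neighbour of the targeted gene. In the GENCODE annotation of mouse build GRCm38, Uba1 lies at chrX:20658326-20683179 and Usp11 at chrX:20703906-20720539 on the same strand, 20727 bases past the end of Uba1. The other 6 protein-coding genes tested within 200 kb had log2 fold changes from -0.28 to 0.25 without IFN-γ, 3 of them called, and from -0.36 to 0.15 with it, 2 of them called. Usp35 went from 1.99 and 1.63 to 1.13 and 0.902 CPM (log2 -0.83 ± 0.263, adjusted p = 0.0345). Under IFN-γ its log2 difference was -0.49 (adjusted p = 0.156).

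With IFN-γ, 7 of 47 members rose and 16 fell in sgUba1 cells, against 39.4% of all genes, 17% upward and 22.4% downward. The medians were -0.03 for members and 0.01 for all genes, and on log2(TPM + 1) 3 members were higher and 13 lower. Of the 8 members higher without IFN-γ, 6 were among the 7, and of the 9 lower ones 8 were among the 16. Usp25 again led the increases (log2 0.59), and Usp9x followed at 416 and 423 against 510 and 519 CPM (log2 0.30). The largest decrease was that of Usp11, given above (log2 -1.75). Among members above 1 log2 CPM Usp43 led, at 52.7 and 49.7 CPM in NC and 32.3 and 37.3 CPM in sgUba1 cells (log2 -0.56), and Usp30 fell by 0.53. Usp10, a p53 deubiquitinase that also binds the stress granule protein G3BP1, was at 252 and 254 against 184 and 184 CPM (log2 -0.46), and Usp20, Usp21 and Usp19 fell by 0.46, 0.44 and 0.40.

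**Figure D4:**
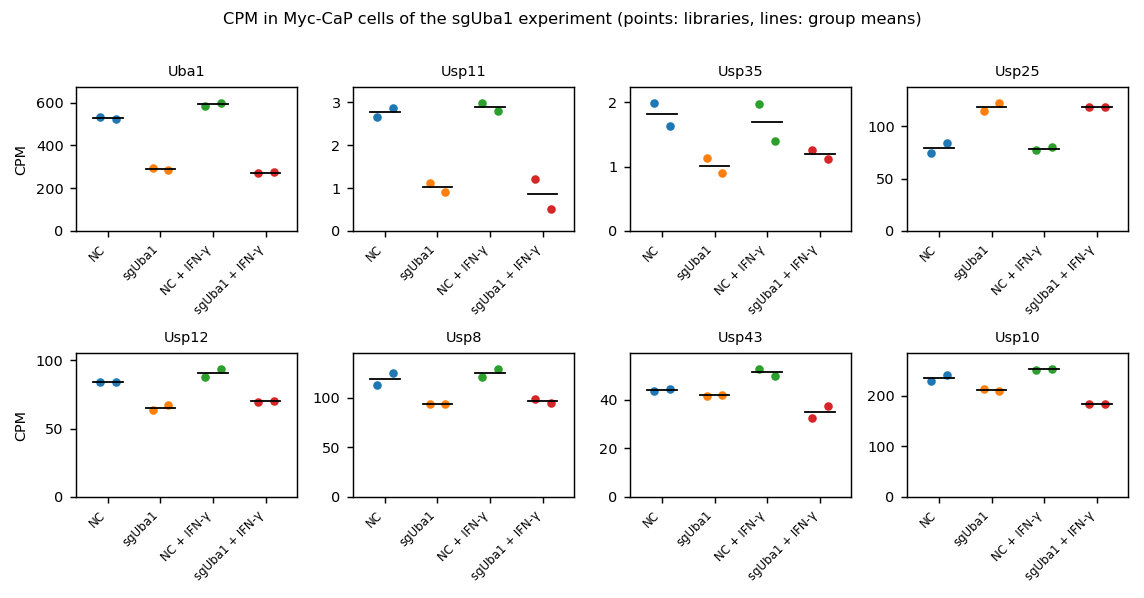
CPM of Uba1 and 7 members in each library of NC and sgUba1 Myc-CaP cells without and with IFN-γ (points are single libraries, 2 per group). Uba1 is at 526 CPM or more in NC and at most 295 CPM in sgUba1 libraries, Usp11 and Usp35 are under 3 CPM throughout, and Usp25 is higher in all 4 sgUba1 libraries.

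Genetic loss and the inhibitor are different ways to lower UBA1 activity, and 30 of 46 members differed in their response. The difference was itself tested (TAK-243 effect minus sgUba1 effect, without IFN-γ), and 21 members had a higher and 9 a lower response to TAK-243, against 55.3% of all genes, 25.2% higher and 30.2% lower. On log2(TPM + 1) these were 19 and 4. Of the 26 members that rose with TAK-243 6 were among the 8 that rose in sgUba1 cells (Usp9x, Usp14, Usp24, Usp33, Usp34 and Usp38) and 5 were among the 9 that fell (Usp6nl, Usp12, Usp22, Usp30 and Usp35). Of the 10 that fell with TAK-243 2 rose in sgUba1 cells (Usp25 and Usp39) and 2 fell (Usp8 and Usp46). The widest gap was that of Usp35, at 2.76 ± 0.337 log2 units (adjusted p = 7.33e-07), and Usp12, Usp22 and Usp30 differed by 0.94, 1.10 and 0.87. Usp25 differed the other way, by -1.18 ± 0.0804 (adjusted p = 2.14e-10). Usp8, at -0.30 with TAK-243 and -0.34 in sgUba1 cells, had a difference of 0.02 ± 0.09. Uba1 itself was higher with TAK-243, at 452 and 445 CPM in control and 595 and 565 CPM in treated cells (log2 0.37, adjusted p = 5.68e-12). The inhibitor and guide experiments were separate cultures with their own controls, so that experiment and agent cannot be told apart.

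IFN-γ alone was tested in the control cells of each experiment. In the control cells of the inhibitor experiment 8 of 46 members rose and 13 fell, against 29% of all genes, 19.6% upward and 9.39% downward, with a median of -0.09 for members and 0.04 for all genes. Among the decreases, Usp17la, 1 of the near-identical copies, fell by 0.68, Usp9x went from 429 and 437 to 327 and 339 CPM (log2 -0.38), Usp34 from 360 and 372 to 287 and 290 CPM (log2 -0.34) and Usp31 fell by 0.29. The counts up and down depended on the scale. On log2(TPM + 1), where the median of all genes was -0.14, 0 members rose and 19 fell, the calls of the 8 that rose were lost, and Usp10, Usp19, Usp22 and Usp39 turned to values below 0. The calls over all genes shifted as well, to 190 higher and 2652 lower of 14551 on that scale. With at least 10 counts in every library the split was 5 and 19 members, beside 2137 and 1952 of 12129 genes. With the groups compared alone it was 6 and 17, beside 2403 and 1869 of 13476 genes.

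In NC cells IFN-γ moved 0 of 47 members by edgeR, with 10 at an unadjusted p under 0.05, against 3.88% of all genes called and 23% at an unadjusted p under 0.05. DESeq2 and limma-voom also called 0. Without NC replicate 1 the count was 8, and without NC replicate 2 it was 3. Usp9x was at 432 and 418 CPM without and 416 and 423 CPM with IFN-γ, and Usp34 at 359 and 364 against 337 and 344 CPM. Whether the IFN-γ effect differed between these control cells and those of the inhibitor experiment was not tested.

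A few members answered IFN-γ differently once UBA1 was perturbed. In sgUba1 cells the IFN-γ effect was lower than in NC cells for 3 of 47 members, against 4.64% of all genes. Usp43 went from 43.5 and 44.5 to 52.7 and 49.7 CPM in NC cells and from 41.6 and 41.8 to 32.3 and 37.3 CPM in sgUba1 cells (difference -0.48, adjusted p = 0.027). Usp19 and Usp10 differed by -0.31 and -0.30 (adjusted p = 0.0315 and 0.033). The count was 7 without NC replicate 1, 10 without NC replicate 2 and 0 or 1 without any other library. In TAK-243-treated cells the effect differed for 3 of 46 members, against 2.38% of all genes, upward for Usp31 (0.27, adjusted p = 0.0349) and Usp9x (0.17, adjusted p = 0.0171) and downward for Usp4 (-0.23, adjusted p = 0.0336). For Usp9x this is the drop of the control cells described above against 693 and 691 CPM without and 594 and 609 CPM with IFN-γ under TAK-243. This count was 0 without control replicate 2 or IFN-γ control replicate 1, and 1 without either library that received both agents. None of these 6 calls was kept in every setting.

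In tumors few USP genes passed a test. Tumors are mixtures, and in a bulk sample fewer cells of a type and less RNA per cell cannot be told apart. In Myc-CaP tumors labelled sgUba1, 1 of 47 members rose and 1 fell against sgNC, a share near that of all genes (3.04%), and the medians were 0.01 and 0.00. Usp43 was at 13.8, 40 and 21.7 CPM in sgNC tumors and at 8.10, 10.4, 7.84, 8.53, 8.35, 8.61 and 8.35 CPM in the tumors labelled sgUba1 (25.2 ± 13.4, SD, n = 3, against 8.60 ± 0.842, SD, n = 7, log2 -1.55 ± 0.245, SE, adjusted p = 0.0193). All 7 lay below the lowest sgNC tumor, and the sgNC tumors themselves were spread widely. Usp5 was at 70.5, 66.1 and 70.3 CPM in sgNC and at 85.3, 94.7, 92.3, 79.7, 90.5, 87.2 and 95.1 CPM in the others (69.0 ± 2.52, SD, n = 3, against 89.2 ± 5.58, SD, n = 7, log2 0.37 ± 0.0853, SE, adjusted p = 0.0466). Here too the groups did not overlap.

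Neither call held without the libraries that went against their label. With replicates 1 to 3 alone, Usp43 was at -1.52 (adjusted p = 0.144) and Usp5 at 0.39 (adjusted p = 0.123), so the sizes stayed and 0 members passed. Usp43 was lost in 4 of 10 fits with 1 tumor left out, those without sgNC replicate 2 (-1.05) or 3 or sgUba1 replicate 4 or 6, and Usp5 in all 10. With the replicate number as a block Usp43 was at -1.40 with an adjusted p of 0.208. DESeq2 called 6 of 47 members, Usp5, Usp20, Usp34 and Usp50 higher and Usp19 and Usp43 lower, a share near that of all genes by DESeq2 (11.5%), and limma-voom called 1 (1.85% of all genes). The 10 myeloid genes summed to 300 to 532 TPM in sgNC and 503 to 879 TPM in the other tumors, with overlap. The 11 T and NK genes in the table summed to 9.33 to 12.4 and 13.2 to 24.4 TPM, without overlap, and 4 and 9 of the 11 reached 1 TPM. Fibroblast genes summed to 229 to 443 and 272 to 935 TPM. These ranges pool replicates 1 to 3 with replicates 4 to 7, whose Uba1 was above every control. The part of these cells in the USP values was not tested.

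Several members set replicates 4 to 7 apart from the other tumors, and these were chosen after their values were seen. How many of all genes do the same was not counted, so nothing particular to USP genes was shown. Usp46 was at 35.6, 31.3 and 33.4 CPM in sgNC tumors, at 38.7, 38.6 and 37.0 CPM in sgUba1 replicates 1 to 3 and at 70.3, 64.7, 65.6 and 67.2 CPM in replicates 4 to 7. Usp9x was at 460, 559 and 499, then 505, 446 and 499, and then 288, 305, 313 and 308 CPM in the same order, and Usp53 at 99.9, 93.9 and 93.0, then 87.7, 86.4 and 83.8, and then 72.3, 66.7, 62.0 and 59.1 CPM. Replicates 1 to 3 thus lay close to sgNC for Usp46 and Usp9x, and replicates 4 to 7 beyond both. Usp50 was at 1.46, 0.103 and 0.884 CPM, then 1.86, 1.11 and 2.24, and then 7.32, 4.80, 7.53 and 7.60 CPM, but it overlaps Usp8 on the opposite strand over 50202 bases, and whether the counting used strand is not given in the sources used here. Over all 7 tumors edgeR called none of these 4 members, whereas DESeq2 called Usp50, and without replicates 4 to 7 their log2 differences were 0.19, -0.07, -0.16 and 1.04.

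**Figure D5:**
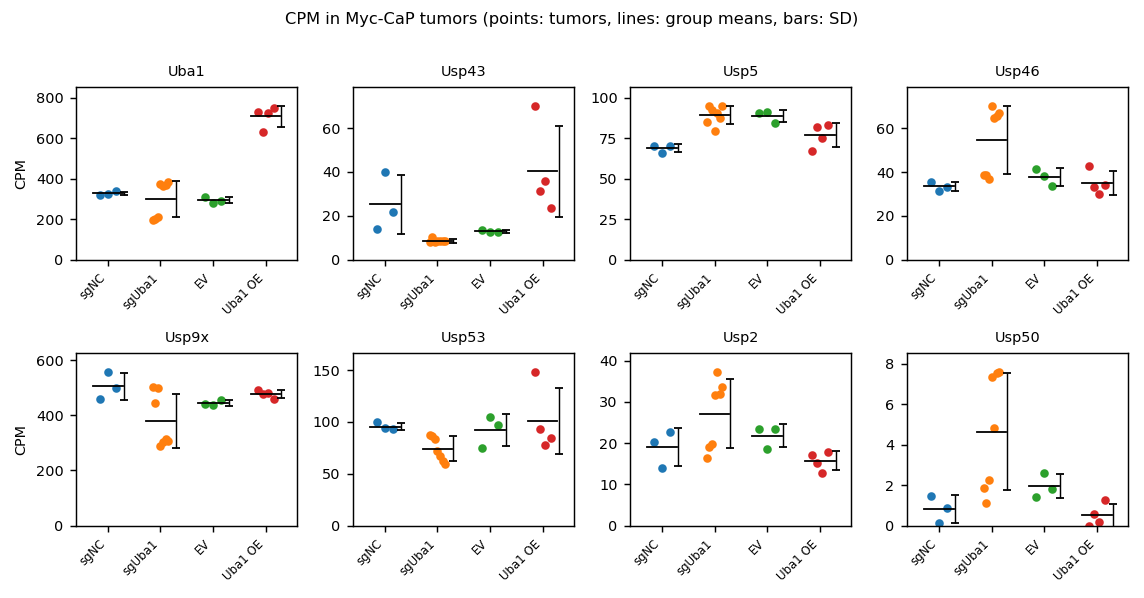
CPM of Uba1 and 7 members in each Myc-CaP tumor of the sgRNA experiment (sgNC, sgUba1) and of the overexpression experiment (EV, Uba1 OE), which were scaled separately (points are single tumors). In the sgUba1 group Uba1, Usp46, Usp9x and Usp50 fall into separate clusters of 3 and 4 tumors, whereas Usp43 is low in all 7, between 7.84 and 10.4 CPM.

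With Uba1 overexpressed, 0 of 47 members passed edgeR's test, as did 0.0269% of all genes, and 7 members had an unadjusted p under 0.05, against 18.2% of all genes. Limma-voom called 0 and DESeq2 1, Usp43, against 4.76% of all genes by DESeq2. Usp43 was at 13.7, 12.4 and 12.7 CPM in EV tumors and at 70.2, 31.4, 36.0 and 23.5 CPM in OE tumors (12.9 ± 0.684, SD, n = 3, against 40.2 ± 20.6, SD, n = 4, log2 1.64 ± 0.355, SE, edgeR adjusted p = 0.123, DESeq2 adjusted p = 5.01e-04). The groups did not overlap, and the OE tumors were spread over a wide range. Without OE replicate 1, or without OE replicate 4, edgeR called 1 member. In the OE tumors the T and NK genes summed to 5.20 to 9.13 TPM against 15.1 to 19.7 TPM in EV tumors, with 3 and 6 of the 11 reaching 1 TPM. Skeletal muscle genes summed to 11.3 to 499 against 11.7 to 18.1 TPM, and the part of these cells was not tested. Usp43 lay below its controls in all 7 tumors labelled sgUba1 and above its controls in all 4 OE tumors, which were set side by side after the values were seen. Among the 7, replicates 4 to 7 had Uba1 above every control. EdgeR did not call the OE difference, and its sgUba1 call was lost with replicates 1 to 3 alone. How many of all genes separate in the same way was not counted.

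In tumors of TAK-243-treated mice 0 of 49 members passed edgeR's test, against 0.145% of all genes, and 5 had an unadjusted p under 0.05, against 15% of all genes. Limma-voom called 0 and DESeq2 2, Usp1 and Usp44, against 3.15% of all genes by DESeq2, and edgeR called 1 without TAK-243 replicate 5. Usp1 ran from 72.5 over a median of 95.0 to 127 CPM in 6 vehicle tumors and was at 53.6, 70.7, 77.1, 40.4 and 65.2 CPM in 5 TAK-243 tumors (log2 -0.64 ± 0.172, edgeR adjusted p = 0.138). The groups overlapped, in that 1 treated tumor lay above the lowest vehicle tumor. Usp44 ran from 1.34 over 1.51 to 2.39 CPM in vehicle tumors and was at 0.680, 0.724, 1.09, 0.661 and 1.15 CPM in treated ones (log2 -0.90 ± 0.219, edgeR adjusted p = 0.12), without overlap. Usp35 ran from 3.73 over 4.39 to 6.20 CPM in vehicle tumors and was at 4.91, 5.79, 6.08, 7.51 and 9.87 CPM in treated ones (log2 0.55 ± 0.194, edgeR adjusted p = 0.227), with overlap. Usp20 was at 0.28 and Usp28 at -0.19, values that did not pass. Myeloid genes summed to 231 to 349 TPM in vehicle and 228 to 581 TPM in treated tumors, and their part was not tested.

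In B16-BL6 tumors, where Uba1 was lower in all 4 sgUba1 tumors (log2 -0.92, adjusted p = 2.94e-04), 0 of 46 members passed edgeR's test, against 0.724% of all genes, and 7 had an unadjusted p under 0.05, against 16.3% of all genes. Limma-voom called 0 and DESeq2 2, Usp49 upward and Usp24 downward, against 3.37% of all genes by DESeq2, and edgeR called 1 without sgUba1 replicate 4. Usp49, a histone H2B deubiquitinase, was at 14.5, 12.2 and 12.8 CPM in sgNC and 19.2, 17.8, 17.7 and 15.4 CPM in sgUba1 tumors (log2 0.41, edgeR adjusted p = 0.121), without overlap. Usp5 was at 189, 213 and 194 CPM in sgNC and at 162 to 197 CPM in sgUba1 tumors (log2 -0.20, edgeR adjusted p = 0.278), with overlap. Myeloid genes summed to 119 to 208 TPM in sgNC and 205 to 269 TPM in sgUba1 tumors. T and NK genes summed to 6.25 to 8.63 and 8.80 to 11.9 TPM, the latter without overlap, with 2 and 4 of the 11 reaching 1 TPM. The same list summed to 2.0 to 7.5 TPM in the cultured Myc-CaP cells, so the tumor sums lie near that background. The part of myeloid, T and NK cells in the USP values was not tested.

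When the sgUba1 effect was compared between the lines, 1 of 48 members differed, against 1.52% of all genes. This was Usp5, whose effect was lower in B16-BL6 than in Myc-CaP by 0.58 ± 0.120 log2 units (adjusted p = 0.0302), and by 0.60 (adjusted p = 0.0346) without the Myc-CaP tumors that went against their label. The call was lost in 8 of 17 fits with 1 tumor left out, those without sgNC replicate 2 or 3 of Myc-CaP or any B16-BL6 tumor but sgUba1 replicate 4. Line, host strain and clone differ together here and cannot be told apart.

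Deubiquitinases of other families were followed in the cells as a frame for the USP genes. The list also holds 3 genes with the USP fold but a symbol outside the name pattern, Cyld, Pan2 and Uspl1. Of its 36 genes 35 could be tested with TAK-243. In all, 17 rose, Cyld and Uspl1 among them, and 10 fell, Pan2 among them, beside 32.3% and 34% of all genes. The median was 0.15 beside 0.23 for the USP members. All 4 ubiquitin C-terminal hydrolases rose, among them Uchl1 (0.70) and Bap1, the nuclear H2A deubiquitinase (0.58), and all 3 Josephin genes fell, Josd2 by 2.10, Josd1 by 0.72 and Atxn3 by 0.27. In the OTU family 7 of 13 rose, with Otud7b at 1.14 and Tnfaip3, the NF-κB inhibitor A20, at 0.86, and 2 fell, with Otub2 at -2.68. In sgUba1 cells 6 of the 35 rose and 5 fell, a share near the 29.7% of all genes. Of 7 genes for partner proteins of USPs, 4 rose with TAK-243 (Wdr48, Wdr20, Gmps and Atxn7) and 2 fell (Eny2 and G3bp1).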

How the data were processed

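Libraries were prepared from tumors and cultured cells by the study, with poly-A capture per the labels and rRNA digestion per its methods. The authors quantified reads with kallisto against mm10, per the submitters' processing notes, and deposited expected counts, which need not be whole, and TPM values per gene, whose strand setting is not given in the sources used here. Rounded expected counts were here filtered with filterByExpr, scaled by TMM and tested with the edgeR 4.0.16 quasi-likelihood test in R 4.3.3, each experiment on its own, with Benjamini-Hochberg adjustment over all genes and a threshold of 0.05. The 4 groups of each cell experiment shared 1 fit. Differences between experiments were interaction terms in joint fits. The deposited TPM values, with a pseudocount of 1, served for levels and as an alternative scale. Other alternatives were DESeq2 1.42.0, limma 3.58.1 (voom), RLE factors, filters on low counts, Bonferroni adjustment, a replicate block and each library left out in turn. The code was tested on simulated data.

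The USP members, role lists and tests were chosen with earlier results of these data known. Named per comparison were the 8 largest increases and 8 largest decreases among members past the threshold with a mean of at least 1 log2 CPM, of which those with a role or a large change are described, the 5 highest and 5 lowest by mean TPM, the members below the rule, Usp6nl and Uba1. Other names were chosen after their values were seen. The share of all genes whose groups do not overlap was not counted in any comparison. The role lists hold 40 of the 49 members. The labels give replicate numbers but no shared animal or day. Deviations of same-numbered samples correlated at 0.22 in sgUba1 cells and at -0.225 to 0.425 in TAK-243 tumors. With 2 libraries a group both pairs give the same value, so pairing cannot be decided from these correlations. As they did not exceed 0.1 in every pair, the numbers were not taken to pair samples, and the replicate block is given as an alternative. Where nothing says that libraries came from separate cultures or animals, p-values measure only the spread between these libraries, which may be technical. Library totals set the precision, and low members such as Usp11 and Usp35 rest on few counts. GENCODE and RefSeq gave positions and promoters. Proteins were not analysed here.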

Additional observations from a re-analysis of the deposited data

Results flagged for a closer look

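In the 7 Myc-CaP tumors labelled sgUba1, Usp43 in replicate 2, at 10.4 CPM, stood further from the next tumor, at 8.61 CPM, than Dixon's test allows for a group of this size. In all, 17 of 238 member groups (7.14%) passed that limit, where chance gives about 1 in 20.

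A test of the difference itself marked members whose response depended on a second condition. These were 3 of 47 members for IFN-γ with sgUba1 (Usp10, Usp19 and Usp43), against 4.64% of all genes. For IFN-γ with TAK-243 they were 3 of 46 (Usp4, Usp9x and Usp31), against 2.38%. For TAK-243 against sgUba1 in cells they were 30 of 46, against 55.3%. For the sgUba1 effect in B16-BL6 against Myc-CaP tumors it was 1 of 48, Usp5, against 1.52%. None of the IFN-γ calls was kept in every setting, and that of Usp5 was lost in 8 of 17 fits with 1 tumor left out.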

How the results depend on the processing

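With DESeq2 the number of USP members called was 2 in B16-BL6, 6 in Myc-CaP sgUba1, 1 in OE and 2 in TAK-243 tumors. Bonferroni adjustment gave 0 in Myc-CaP sgUba1 tumors, in both IFN-γ interactions and between the lines, 1 in sgUba1 cells, 2 in sgUba1 cells with IFN-γ, 5 for IFN-γ in control cells and 17 for TAK-243 against sgUba1. On log2(TPM + 1) the count was 1 in Myc-CaP sgUba1 tumors, 7 in sgUba1 cells and 0 in both IFN-γ interactions and between the lines. Without a filter on low counts it was 1 in Myc-CaP sgUba1 tumors, 2 for IFN-γ in NC cells and 0 between the lines. Limma-voom gave 1 in Myc-CaP sgUba1 tumors, where leaving out the 4 tumors above every control in Uba1 gave 0, and a fit of the groups compared alone gave 7 in sgUba1 cells. The replicate block gave 0 in Myc-CaP sgUba1 tumors and 0 between the lines and moved no other count by over 1.5 times. The number of calls over all genes moved with the setting as well. The cause of these shifts was not tested.

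With 1 library left out, the counts ran from 0 to 1 in B16-BL6, OE and TAK-243 tumors and between the lines, 0 to 2 in Myc-CaP sgUba1 tumors, 7 to 20 in sgUba1 cells and 19 to 28 with IFN-γ, 32 to 36 with TAK-243 and 34 to 38 with IFN-γ added, 27 to 32 for TAK-243 against sgUba1, 0 to 8 for IFN-γ in NC and 14 to 22 in control cells, and 0 to 10 and 0 to 3 for the IFN-γ interactions with sgUba1 and TAK-243.

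Of the alternative values of single named genes, 1853 kept direction and side of the threshold, 254 lost and 9 gained the call, and 5 turned sign, all on log2(TPM + 1). These were, for IFN-γ in control cells, Usp10 (-0.076), Usp19 (-0.046), Usp22 (-0.001) and Usp39 (-0.101), and Uba1 (0.015) in the IFN-γ interaction with TAK-243.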

Other observations

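Related USP genes were compared in pairs under TAK-243. From general knowledge, 10 pairs of related members were written down after the values of some had been seen, and 9 could be tested. In 3 pairs both members passed the test in cells in opposite directions: Usp20 (-1.67) and Usp33 (0.74), which act on the same kind of membrane receptor, Usp46 (-1.03) and Usp12 (0.59), which share the activator UAF1, and Usp25 (-0.58) and Usp28 (1.17). With IFN-γ, in other libraries, the same pairs were at -1.61 and 0.86, -1.03 and 0.60, and -0.73 and 1.31. In 4 pairs both rose, namely Usp53 and Usp54 (0.48 and 0.42), Usp4 and Usp15 (0.31 and 0.18), Usp22 and Usp27x (0.93 and 0.59) and Usp35 and Usp38 (1.96 and 0.42), and in 2 pairs 1 member passed. Since 26 of 46 members rose and 10 fell, some pairs with opposite calls arise in any pairing, and nothing particular to related genes was tested.

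In sgUba1 cells the values were as follows. Usp12 and Usp46 both fell (-0.37 and -0.17), Usp33 rose (0.25) with Usp20 at -0.25 and not called, and Usp25 rose (0.58) with Usp28 at -0.06 and not called. The 1 pair called in opposite directions was Usp35 (-0.83) and Usp38 (0.20).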
